A study of Caenorhabditis elegans with 6 samples.

Results

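The core histone genes of Caenorhabditis elegans were read by 50 of the 22548 non-control probe sets on the array. A probe set was taken as a member when its gene symbols in the deposited table included a numbered his gene, and his-24, which encodes a linker histone, was left out. Of these, 26 probe sets named 1 gene and 24 were shared by 2 or more genes, with up to 12 genes on a single probe set. The RNA came from whole mixed-stage embryos, in 3 samples of the mir-35-41(nDf50) mutant and 3 samples of wild type. The mutant carried the nDf50 deletion of the mir-35 to mir-41 microRNA cluster in strain VT2935 lacking nEx1187, and the wild type was strain N2. Both groups shared the same culture history: plates with added egg yolk, growth at 20 °C, a shift to 25 °C for the last 24 hours before harvest, and release of embryos by hypochlorite. No probe set for the deleted microRNAs was used here, so the deletion itself was not checked on the arrays. The labels do not say whether the replicates are separate cultures, and p-values therefore speak only of the variation among these 6 samples, which could be technical.

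A nucleosome is a stretch of DNA wound around a core of the histones H2A, H2B, H3 and H4. The canonical core histones are made mainly in S phase, when new DNA is packaged, and in animals their messengers typically end in a stem-loop bound by the stem-loop binding protein instead of a poly(A) tail. The variant H3.3 can be placed in chromatin outside replication, and its messengers are ordinary polyadenylated ones. The mir-35 family is expressed in the oocyte and early embryo of the worm and is required for embryonic development. The labels name an amplification and biotin labelling kit and not its primer, so how fully messengers without a poly(A) tail were captured is not known from the sources used here.

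By histone type, 9 probe sets read H2A, 10 read H2B, 11 read H3, 6 read H3.3, 12 read H4, and 2 were kept apart as mixed. The mixed ones were 172055_x_at, shared by 12 H2A and H2B genes, and 172692_x_at. The latter names the H2B gene his-41 and C50F4.6, a gene without a numbered his symbol, whose type is not given here. RefSeq (assembly WBcel235) holds 71 numbered his genes besides his-24, and 69 were named by at least 1 probe set. The exceptions were his-40 and his-73, although the representative sequence listed for 172777_x_at (his-6/his-17/his-27/his-49) is that of his-40. Most probe sets, 38 of 50, carry the suffix _x_at, which marks probes that can also match other sequences, and 4 carry _s_at. Copies of 1 histone type are nearly identical in coding sequence, so even a single-gene _x_at probe set can take signal from other copies, and the split of signal among copies is uncertain. Only 7 single-gene probe sets carried neither suffix. Many of these genes lie next to each other in the genome: the 71 genes formed 17 groups when neighbours up to 20000 bases apart were joined, and 13 of these groups held more than 1 gene.

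Values are log2 of the deposited normalized intensity unless stated otherwise, and a difference is the mutant mean minus the wild type mean. Arrays did not weigh equally in the series. Over all probe sets, 785 passed an adjusted p of 0.05 (limma, Benjamini-Hochberg over all 22548). Dropping mutant replicate 1 gave 2404, while dropping replicates 2 and 3 of the mutant gave 147 and 109. Among the wild type arrays, 513 passed when replicate 1 was dropped, 161 when replicate 2 was dropped and 252 when replicate 3 was dropped. Transcripts that mark embryos were present: all 20 probe sets of a maternal list (pie-1, mex-5, pos-1 and others) and 9 of 11 probe sets of a first-zygotic list lay above the brightest yeast control in both groups, at 5.34 in the mutant and 5.42 in wild type. Among the core histones 47 of 50 probe sets lay above that control in both groups. The others were the H3.3 gene his-70 and the second his-2 probe set (175461_at), below it in both groups, and 187410_at of 4 H4 genes, below it in the mutant only.

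None of the 50 core histone probe sets passed the adjusted threshold in either direction (limma), beside 3.48% of all probe sets, of which 2.83% were called higher and 0.648% lower. An unadjusted p under 0.05 (limma) was reached by 1 of 50, beside 19.4% of all probe sets. With 1 array left out this ran from 0 members without mutant replicate 2 to 21 without wild type replicate 2. The matching shares of all probe sets are not given here. The lowest adjusted p among the members was 0.135, for his-71. Groups that did not overlap were seen for 2 of 50, beside 24.3% of all probe sets: all mutant arrays lay above all wild type arrays for his-71 (11% of all probe sets), and all lay below for his-69 (13.3% of all). The count of members past the adjusted threshold also stayed at 0 under every setting that left out a single array, and with the replicate number as a block.

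The mutant mean was nevertheless the lower one in 44 of 50 probe sets (88%), beside 60.7% of all probe sets. The median difference was -0.16, beside -0.05 over all probe sets, and the members ran from -0.55 for his-29/his-34 to 0.31 for his-71. The median moved with single arrays: it was -0.08 without wild type replicate 1 (-0.04 over all probe sets), -0.30 without wild type replicate 2 and -0.25 without mutant replicate 1. Without mutant replicate 3, 34 of 50 means were lower in the mutant. Many probe sets can take signal from the same transcripts, so the 50 are not independent readings. The 7 single-gene probe sets with neither shared-probe suffix had a median of -0.05, near that of all probe sets, with 6 means lower in the mutant. They include his-70 and 175461_at (his-2), both below the brightest yeast control. The 95% intervals are those of single probe sets, not adjusted for their number. Their variances were shared by both groups and moderated over all probe sets, while the members varied more within wild type. They therefore bound the differences only roughly. For 45 of 50 probe sets the interval lay inside a 2-fold change in either direction, the half-width had a median of 0.41, and the outermost bounds were -1.28 and 0.89. These were bulk embryos, so fewer cells making a transcript and less of it per cell cannot be told apart.

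**Figure D1:**
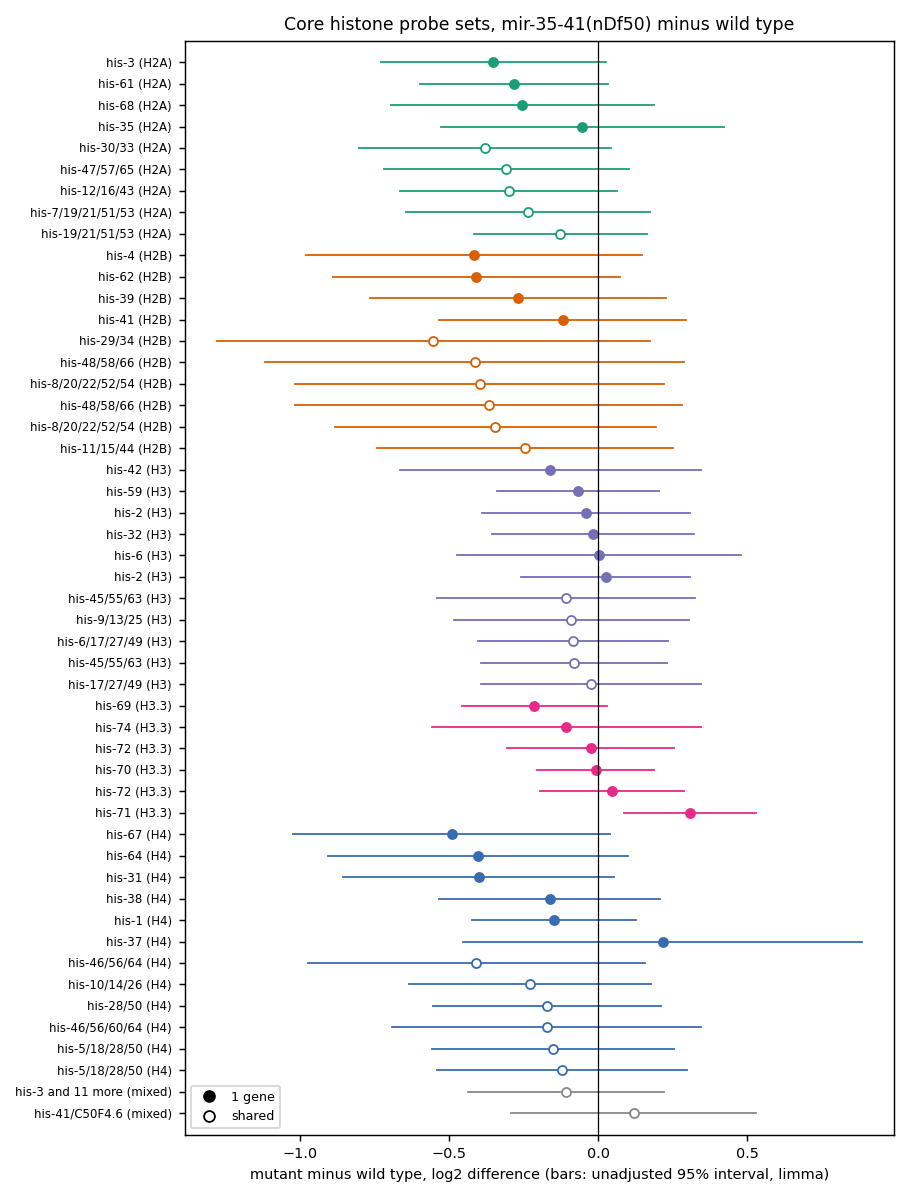
Mutant minus wild type difference (log2, horizontal axis) of each of the 50 core histone probe sets, grouped by histone type down the page; points are differences (filled for 1 gene, open for shared) and bars are 95% intervals of the limma fit on 3 mutant and 3 wild type arrays. Points lie left of 0 for 44 of 50 probe sets, and only the interval of his-71 stays off 0.

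The H2A genes encode the histone whose tail carries several regulatory marks and which pairs with H2B. All 9 H2A probe sets had the lower mean in the mutant, with a median difference of -0.28 and a range of -0.38 to -0.05, and none passed. The median was -0.20 without wild type replicate 1 and -0.44 without wild type replicate 2. The single-gene his-3 (172763_x_at, chromosome V) measured 8.96, 8.92 and 8.86 in the mutant, against 9.57, 8.94 and 9.28 in wild type. Its difference was -0.35 (SE 0.16, limma adjusted p = 0.291). Wild type replicates 1 and 3 lay above all mutant arrays, and wild type replicate 2 lay within them. The shared probe set of his-30 and his-33 (172860_x_at, chromosome IV) gave 9.72, 9.46 and 9.42 in the mutant, against 10.24, 9.58 and 9.93 in wild type, with the same order of wild type arrays. That of his-47, his-57 and his-65 (172823_x_at, chromosome IV) differed by -0.31 (SE 0.17). The weakest difference was that of his-35, a single-gene H2A on chromosome V, at -0.05 (SE 0.20). Its arrays read 10.68, 10.96 and 10.65 in the mutant, against 10.43, 10.81 and 11.20 in wild type, where replicate 1 was the lowest of all 6.

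H2B, the partner of H2A in the nucleosome's dimers, had a median difference of -0.38 over 10 probe sets, and again all 10 means were lower in the mutant and none passed. Single-gene probe sets ran from -0.42 to -0.12 and shared ones from -0.55 to -0.24. For his-29/his-34 (172851_x_at, chromosome IV) the mutant arrays read 8.81, 8.18 and 8.17 and the wild type arrays 9.57, 8.48 and 8.77. The difference was -0.55 (SE 0.31, limma adjusted p = 0.389) and the groups overlapped, since mutant replicate 1 lay above wild type replicates 2 and 3. The single-gene his-4 (172824_x_at, chromosome V) read 7.44, 7.23 and 7.15 in the mutant, against 8.23, 7.28 and 7.57 in wild type, with a difference of -0.42 (SE 0.24). A probe set of his-48, his-58 and his-66 (172891_x_at) differed by -0.41 (SE 0.30). One wild type array carried much of this: wild type replicate 1 was the highest of the 6 arrays in 9 of 10 H2B probe sets. Without it the H2B median was -0.10, and that of H2A, at -0.20, was the lower one. The median SD of the H2B probe sets was 0.15 among mutant arrays and 0.49 among wild type arrays (n = 3 each).

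H4, which pairs with H3 in the tetramer at the centre of the nucleosome, had a median difference of -0.17 over 12 probe sets, with 11 means lower in the mutant and none past the threshold. Without wild type replicate 2 the H4 median was -0.34. The lowest difference was that of the single-gene his-67 (188963_at, chromosome I), which read 6.02, 5.79 and 5.56 in the mutant, against 6.74, 5.93 and 6.17 in wild type, a difference of -0.49 (SE 0.22, limma adjusted p = 0.294). Here wild type replicate 1 stood above the rest and mutant replicate 3 below. A second pattern, in which wild type replicate 3 was the highest array, appeared among H4 genes of chromosome IV. It was also seen for his-1 and his-37 of chromosome V. The probe set of his-46, his-56 and his-64 (172679_x_at) gave 9.59, 9.37 and 9.55 in the mutant, against 9.77, 9.50 and 10.46 in wild type. Its difference was -0.41 (SE 0.24). For his-64 alone (172787_x_at) the values were 9.23, 9.09 and 9.37 in the mutant, against 9.48, 9.3 and 10.12 in wild type, and both probe sets may take signal from the same transcripts. In all, 6 of 12 H4 probe sets were highest on wild type replicate 3 and 6 on wild type replicate 1. The single H4 with a higher mutant mean was his-37, described with its neighbours further on.

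H3 carries many of the lysine modifications of chromatin. Its 11 probe sets had a median difference of -0.07, a range of -0.16 to 0.03, and 9 of 11 means lower in the mutant. Single arrays set both its size and its sign: the median was -0.18, -0.04 and 0.03 when replicates 1, 2 and 3 of the mutant were dropped in turn, and 0.03 and -0.13 when replicates 1 and 2 of wild type were. The lowest was the single-gene his-42 (172899_x_at, chromosome II), with 10.09, 9.63 and 9.39 in the mutant, against 10.17, 9.61 and 9.81 in wild type, a difference of -0.16 (SE 0.21, limma adjusted p = 0.740). Both groups therefore covered nearly the same range. The shared sets of his-45/his-55/his-63 (172774_x_at) and his-9/his-13/his-25 (172871_x_at) differed by -0.11 (SE 0.18) and -0.09 (SE 0.17). At the other end were his-2 (172833_x_at), at 0.03 (SE 0.12), and his-6 (172867_x_at, chromosome V), with 10.08, 9.71 and 9.36 in the mutant, against 9.97, 9.57 and 9.61 in wild type. In all 11 H3 probe sets replicate 1 was the highest array of the mutant and also of wild type, and mutant replicate 3 was the lowest of all 6 in 10 of 11.

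H3.3 was read by 6 single-gene probe sets of 5 genes, with a median difference of -0.02, which ran between -0.09 without mutant replicate 1 and 0.04 without mutant replicate 3. The gene his-71, on chromosome X, read 10.14, 10.34 and 10.17 in the mutant, against 9.94, 9.83 and 9.96 in wild type (188999_s_at). Every mutant array lay above every wild type array, and the difference was 0.31 (SE 0.09, 95% interval 0.09 to 0.53), or 1.24-fold, with an unadjusted p of 0.0135 and an adjusted p of 0.135 (limma). Its adjusted p (limma) ran from 0.03 with array weights, where it passed, to 0.397 without mutant replicate 2. With array weights 18.6% of all probe sets passed. The brightest H3.3 probe set, that of his-72 on chromosome III (172863_x_at), gave 13.58, 13.33 and 13.17 in the mutant, against 13.42, 13.37 and 13.36 in wild type, so the groups overlapped and the difference was -0.02 (SE 0.12). Its second probe set (171960_x_at) differed by 0.05 (SE 0.10). For his-74 (192351_s_at, chromosome V) the values were 10.94, 10.24 and 10.34 in the mutant, against 10.48, 10.65 and 10.71 in wild type. Mutant replicate 1 was the highest of the 6 arrays and the other 2 mutant arrays were the lowest, giving a difference of -0.11 (SE 0.19, limma adjusted p = 0.813). Without both arrays numbered 1, a setting added after the data were seen, this difference was -0.39 and passed at an adjusted p of 0.0466 (limma). In that setting 6.89% of all probe sets were called lower. The dim his-69 (188604_at) read 5.71, 5.46 and 5.62 in the mutant, against 5.75, 5.75 and 5.93 in wild type, and its difference of -0.21 did not pass (SE 0.10, adjusted p = 0.315). The gene his-70 stayed at 4.71 on average in the mutant and 4.72 in wild type, below the brightest yeast control.

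**Figure D2:**
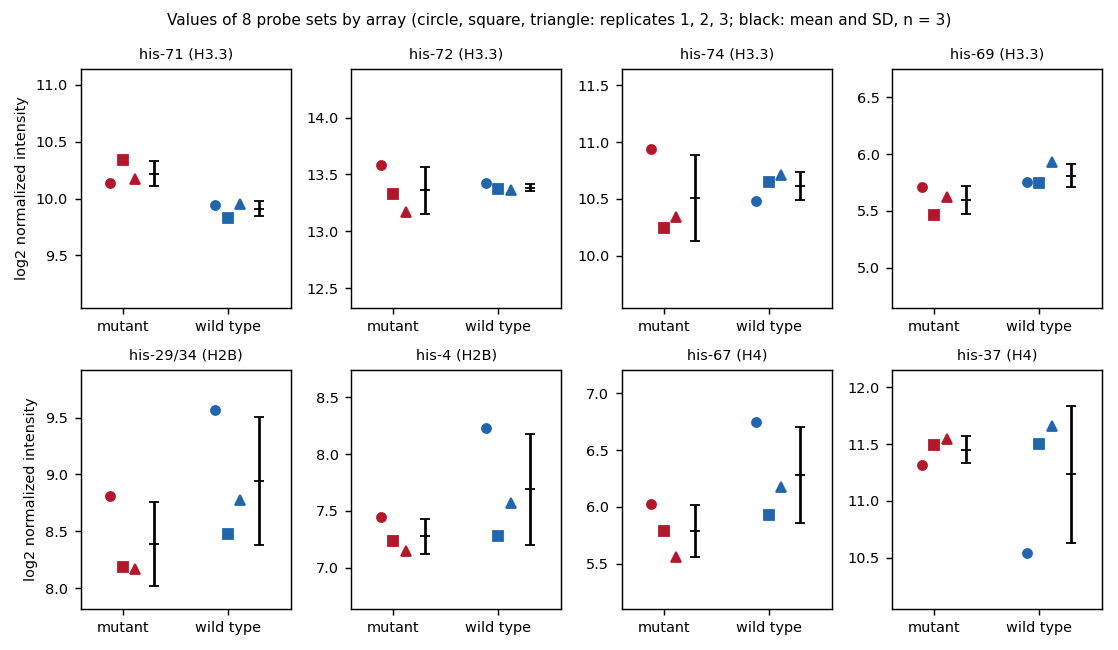
Values on every array for selected core histone probe sets (log2 normalized intensity; mutant left, wild type right; circle, square and triangle are replicates 1, 2 and 3, and black bars give the mean and SD, n = 3 each). His-71 is the only panel in which all mutant arrays lie above all wild type arrays, and his-29/his-34 shows wild type replicate 1 well above the other wild type arrays.

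Which arrays were high or low differed by histone type, as a description with no test. Over all 50 probe sets the median deviation from the 6-array mean was 0.04, -0.14 and -0.19 on mutant replicates 1, 2 and 3, against 0.28, -0.14 and 0.10 on wild type replicates 1, 2 and 3. Wild type replicate 1 was the highest array for 28 of 50 probe sets (56%, beside 23.6% of all probe sets) and mutant replicate 3 was the lowest for 24 of 50 (48%, beside 18%). The H2B median was 0.72 above its 6-array mean on wild type replicate 1 and -0.20 and 0.07 on the other wild type arrays. Both H2A (0.36, -0.15 and 0.22) and H4 (0.25, -0.16 and 0.25) were high on wild type replicates 1 and 3. H3 was high on both arrays numbered 1, at 0.23 in the mutant and 0.23 in wild type, while H3.3 moved by at most 0.14. The median spread of the 50 probe sets was 0.16 within the mutant and 0.31 within wild type (SD, n = 3 each), while over all probe sets it was 0.13 within the mutant and 0.14 within wild type.

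**Figure D3:**
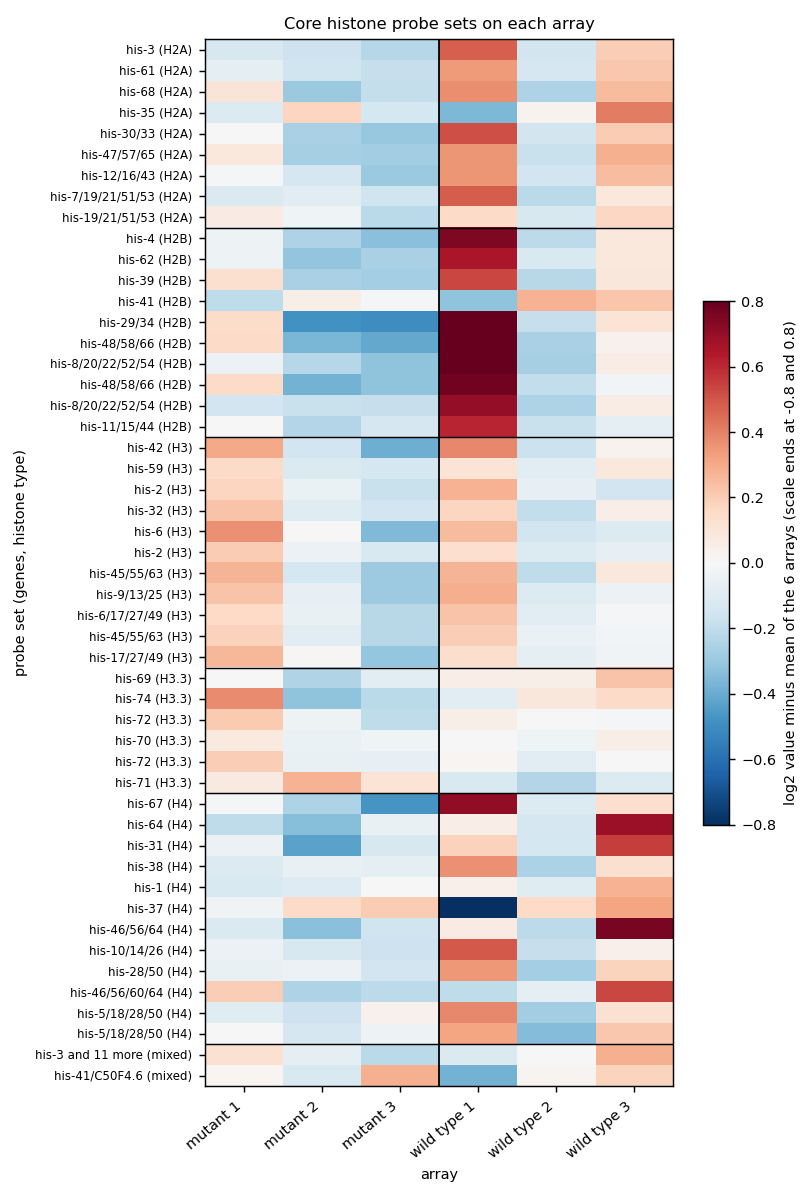
Deviation of each core histone probe set from its own 6-array mean (log2, colour), with probe sets down the page by type and arrays across it, mutant arrays left of wild type arrays. On wild type replicate 1 all H2B probe sets but his-41 are above their mean, and those of his-35, his-37 and his-41 are below theirs.

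**Figure D4:**
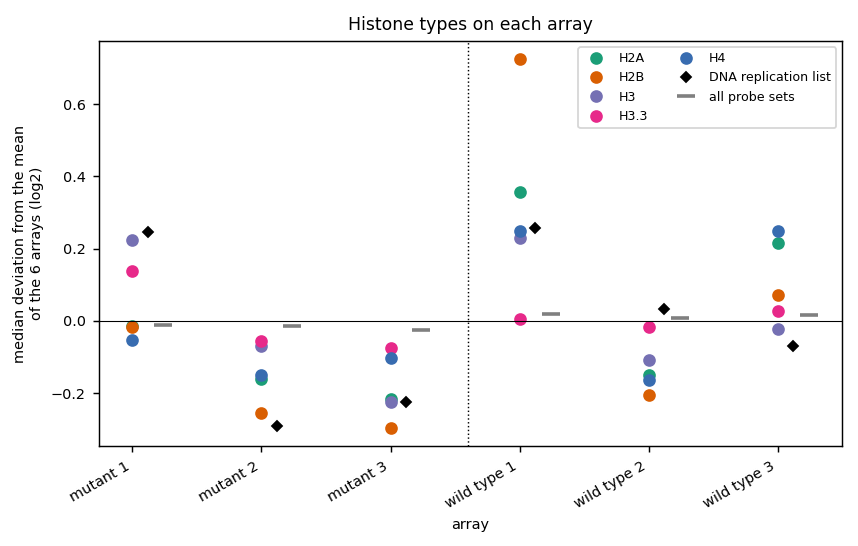
Median deviation from the 6-array mean (log2) on each array, by histone type and for the DNA replication list, and for all probe sets (grey dashes), with the mutant arrays left of the wild type arrays. The H2B point reaches 0.72 on wild type replicate 1, and the H3.3 points stay within 0.14 of 0.

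A group of neighbouring genes on chromosome V, chosen after its values were seen, was low on wild type replicate 1. His-35 (H2A), his-37 (H4) and his-41 (H2B) lie next to each other, and their gene models are longer than the usual ones, which in 60 of 66 canonical genes have the usual coding length of the type. In all 4 of their probe sets, counting that of his-41 with C50F4.6, wild type replicate 1 lay below both other wild type arrays, as it did in 7 of 50 members in all; the others were his-74, 187410_at (H4) and 172055_x_at (H2A and H2B). The clearest was his-37 (188708_at), with 11.32, 11.49 and 11.54 in the mutant, against 10.54, 11.50 and 11.66 in wild type. That single wild type array set the difference of 0.22 (SE 0.28, 95% interval -0.45 to 0.89, adjusted p = 0.733, limma), and without it the difference was -0.13. Among the 37 probe sets whose genes are all canonical and of usual length, wild type replicate 1 was the highest array in 26. Their median difference was -0.23, while 7 probe sets of genes with longer models (those of his-72, his-41, his-37, his-71, his-35 and his-74) had a median of -0.02. Without wild type replicate 1 the order turned, to -0.07 for the usual and -0.13 for the longer ones. The longer ones include the H3.3 probe sets of his-72, his-71 and his-74, and H3.3 alone had a median of -0.02. Gene model length and histone type are thus mixed in this contrast. The difference between these subsets was not tested.

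**Figure D5:**
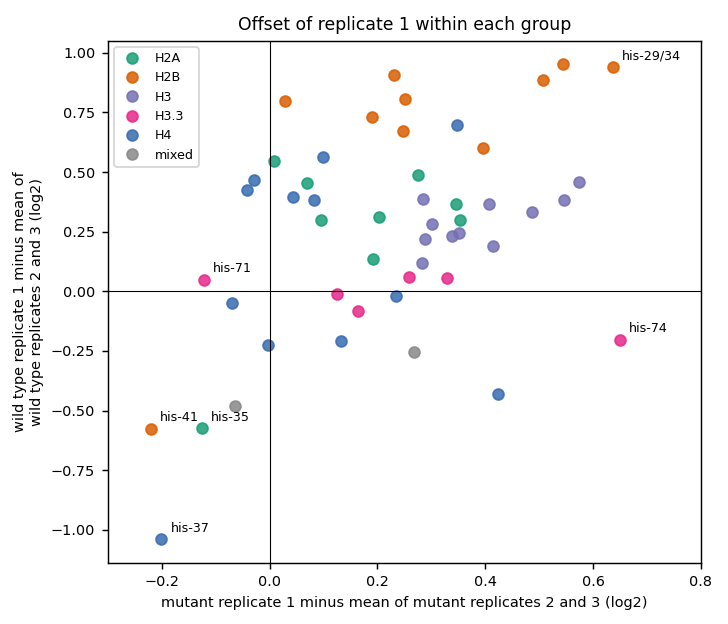
For each core histone probe set, the offset of mutant replicate 1 from the mean of mutant replicates 2 and 3 (horizontal axis, log2) and of wild type replicate 1 from the mean of wild type replicates 2 and 3 (vertical axis, log2), coloured by type. H2B probe sets other than his-41 lie high on the vertical axis, and his-35, his-37 and his-41 lie at the lower left.

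Single-gene probe sets had a median difference of -0.13 and shared ones a median of -0.20. The shared ones had the lower mean in the mutant in 23 of 24 cases and the single-gene ones in 21 of 26. Some genes had more than 1 probe set. Those of his-48/his-58/his-66 differed by -0.41 and -0.37, and those of his-2 by 0.03 and, on the set below the brightest yeast control, -0.04. Others lay farther apart: 172679_x_at of his-46, his-56 and his-64 differed by -0.41 and 187410_at, which adds his-60, by -0.17. The mixed H2A and H2B probe set (172055_x_at) differed by -0.11 (SE 0.14), against -0.35 for his-3 and -0.42 for his-4 on their own sets. That of his-41 with C50F4.6 differed by 0.12 (SE 0.17), and that of his-41 alone by -0.12 (SE 0.17).

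Values within single genomic groups are given by type, as a description with no test. On chromosome V, his-1 to his-4 are neighbours with 1 gene of each type: H2B (his-4) and H2A (his-3) differed by -0.42 and -0.35, H4 (his-1) by -0.15 (SE 0.12), and H3 (his-2) by 0.03 and -0.04. On chromosome IV, the group of his-29 to his-34 had -0.55 for its H2B probe set, -0.40 (SE 0.19) for the H4 gene his-31, -0.38 for its H2A probe set and -0.02 (SE 0.14) for the H3 gene his-32. A further group there gave -0.41 (SE 0.20) for the H2B gene his-62, -0.28 (SE 0.13) for the H2A gene his-61 and -0.07 (SE 0.11) for the H3 gene his-59. Other groups had other orders: on chromosome I the H4 gene his-67 was at -0.49 and the H2A gene his-68 at -0.25 (SE 0.19), and on chromosome II an H2A set (his-12/his-16/his-43) was at -0.30 and the H2B set (his-11/his-15/his-44) at -0.24. Without wild type replicate 1, his-4 was at -0.15 and his-3 at -0.20, and his-62 and his-61 were both at -0.18. None of these passed, and the differences between types were not tested. The 5 probe sets of the chromosome II group of his-9 to his-16, his-25, his-26 and his-42 to his-44 had differences of -0.30 to -0.09, and wild type replicate 1 was the highest array in all 5. Another 17 probe sets were shared by genes of more than 1 genomic group, and all 17 had the lower mean in the mutant, with a median of -0.17.

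No gene of 5 related lists passed either, beside 3.48% of all probe sets called in either direction. The lists covered other histone variants, histone chaperones, the histone mRNA 3′ end and CSR-1 pathway, DNA replication and histone-modifying enzymes. Of the 4 probe sets of htz-1, hcp-3 and cpar-1, which encode H2A.Z and centromeric H3 forms, 0 passed and the median was -0.16. Chaperones, which carry histones to and from DNA, had 0 of 18 called and a median of -0.03. The largest difference there was that of hmg-3, a subunit of the FACT complex, which gave 8.09, 7.51 and 7.96 in the mutant, against 8.39, 8.68 and 8.62 in wild type, -0.71 (SE 0.17, adjusted p = 0.0746, limma). The 9 probe sets of the 3′ end and CSR-1 list had 0 called and a median of -0.02, with cdl-1, the worm stem-loop binding protein, at -0.40 (SE 0.16) and csr-1, an Argonaute, at -0.43 (SE 0.29). The replication list (pcn-1, mcm-2 to mcm-7 and others) had 0 of 28 called, with 24 means lower in the mutant and a median of -0.18, cdt-1 being lowest at -0.53 (SE 0.25). In this list 24 of 28 probe sets were highest on mutant or wild type replicate 1, 12 on each, with medians of 0.25, -0.29 and -0.22 on the mutant arrays and 0.26, 0.03 and -0.07 on the wild type arrays. Modifying enzymes had 0 of 28 called and a median of -0.18, with set-1, a histone methyltransferase, at -0.56 (SE 0.13, adjusted p = 0.0732).

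Markers of stage and of other cells moved as follows beside these values. Over all probe sets, 2.83% were called higher and 0.648% lower. The maternal list had 0 of 20 called and a median of -0.28, with summed intensities of 21833 to 27613 in the mutant and 24949 to 30452 in wild type. The first-zygotic list had 0 of 11 called, a median of -0.35 and summed intensities of 1846 to 2694 in the mutant, against 2739 to 3104 in wild type. In the late-embryo list 4 of 22 were called higher, namely dpy-5 (1.90), both probe sets of egl-3 (1.52 and 1.42) and rol-6, a cuticle collagen (1.16). A probe set of che-14 (-0.66) was the 1 called lower. The list median was 0.07, with 14 means higher and 8 lower in the mutant. Its sums were 52167 to 59944 in the mutant, against 51769 to 54604 in wild type. Both sqt-3 probe sets, the brightest of the list, weigh most in these sums and differed by 0.04 and 0.01. Sperm genes had 5 of 36 called higher, all msp, with sums of 3595 to 4402 in the mutant and 2985 to 3265 in wild type. The other sperm markers were near or below the brightest yeast control, and none passed. Averages in the mutant and in wild type were 4.06 and 4.02 for spe-11, 5.33 and 5.34 for fer-1, and 5.42 and 5.77 for spe-9. They were 5.37 and 4.99 for spe-10 and 4.75 and 5.35 for spe-44, so these markers went both ways. Adult-tissue genes had 1 of 11 called higher, the yolk protein gene vit-1 (0.58), with sums of 577 to 623 in the mutant and 542 to 588 in wild type. The part of these markers in the histone differences was not tested.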

How the data were processed

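Linear normalized intensities of the 6 arrays were deposited by the authors, and Affymetrix Expression Console was the tool, per the submitters' processing notes. How probes were summarized, and whether background was removed, no label or header says. The deposited series matrix holds log2 values that equal the log2 of that table within 5.66e-06, and it was not used further. The common scale hides any change in total messenger RNA.

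Of 22625 probe sets, 77 controls were left out. The linear values were log2 transformed with no pseudocount and no filter on dim probe sets. A linear model with moderated variances (limma 3.58.1, R 4.3.3) set the 3 mutant arrays against the 3 wild type arrays, with Benjamini-Hochberg adjustment over 22548 probe sets and a threshold of 0.05. On simulated data of 22548 probe sets with 3 arrays a group, the fit recovered 62 of 66 changes of 2.0 log2 units, 41 of 67 of 1.0 and 3 of 67 of 0.5, with 3 false calls. The simulated noise was normal, with the spread fitted over all probe sets and equal in both groups. Core histone probe sets had a median SD of 0.31 within wild type, against 0.14 over all probe sets. The recovered shares therefore do not carry over to them. The number of arrays limits the precision.

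The members and lists were chosen with earlier results of these data known. Named were, for each histone type, the 3 largest rises and 3 largest falls, all probe sets of H3.3 genes and of his-35, and from each list up to 3 called members or the largest; others were chosen after their values were seen. Histone types came from the gene columns, and names and neighbours from RefSeq WBcel235. Tried alternatives were a replicate block, each array left out, quantile and median scaling, filters on dim probe sets, a pseudocount of 16, a trended robust fit, array weights and, added after the data were seen, both arrays numbered 1 left out.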

Additional observations from a re-analysis of the deposited data

How the results depend on the processing

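No core histone probe set was called with 1 array left out, with a replicate block, or under the scaling, dim-filter, pseudocount and trended fits. With array weights 1 was called higher, his-71, which is also the count among single-gene and H3.3 probe sets. Without both arrays numbered 1, a setting added after the data were seen, 1 was called lower, his-74, again 1 single-gene and 1 H3.3 probe set. Whether the same replicate numbers pair the samples was not settled by correlations of within-group deviations over all probe sets. Same-numbered arrays correlated at 0.199, 0.016 and 0.090, while differently numbered ones ran from -0.327 to 0.345. With the replicate number as a block, 882 of all probe sets were called, against 785 without it, 0 members were called, and 11 members had an unadjusted p under 0.05, against 1 without it. Over all probe sets, 4195 passed with array weights and 3508 without both arrays numbered 1.

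The sign of the difference was kept by 29 of 50 members with each array left out in turn and turned for the other 21, whose cause was not tested. Lowest and highest differences with 1 array left out were -0.24 and 0.14 for his-35, -0.39 and 0.0005 for his-11/his-15/his-44, -0.27 and 0.012 for his-45/his-55/his-63 (172774_x_at), -0.23 and 0.034 for his-9/his-13/his-25, -0.18 and 0.010 for his-6/his-17/his-27/his-49, -0.19 and 0.011 for his-45/his-55/his-63 (172788_x_at), -0.16 and 0.13 for his-17/his-27/his-49. They were -0.14 and 0.088 for his-2 (175461_at), -0.13 and 0.064 for his-32, -0.18 and 0.18 for his-6, -0.071 and 0.098 for his-2 (172833_x_at), -0.32 and 0.028 for his-74, -0.13 and 0.07 for his-72 (172863_x_at), -0.050 and 0.017 for his-70. They were also -0.040 and 0.092 for his-72 (171960_x_at), -0.31 and 0.054 for his-46/his-56/his-60/his-64, -0.33 and 0.0047 for his-5/his-18/his-28/his-50 (172650_x_at), -0.32 and 0.0073 for his-5/his-18/his-28/his-50 (172733_x_at), -0.13 and 0.43 for his-37, -0.20 and 0.0056 for 172055_x_at, -0.040 and 0.24 for his-41/C50F4.6. Signs also turned with quantile scaling for his-17/his-27/his-49 (0.017), his-32 (0.019) and his-70 (0.004). With median centring, which moved the median of all probe sets to -0.11, against -0.05 as deposited, his-6 was at -0.061, his-2 at -0.040 and his-72 (171960_x_at) at -0.019. With array weights, his-6 was at -0.14, his-2 at -0.022 and the his-5/his-18/his-28/his-50 pair at 0.052 and 0.048. Without both arrays numbered 1, his-6 was at -0.050, his-72 (171960_x_at) at -0.021, his-5/his-18/his-28/his-50 (172650_x_at) at 0.014, his-37 at -0.062 and his-41/C50F4.6 at -0.018.

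Among related lists, more members were called lower under some settings. Without both arrays numbered 1 they were 2 of 18 chaperones, 1 of 9 of the 3′ end and CSR-1 list, 5 of 28 of replication and 2 of 28 modifying enzymes, beside 6.89% of all probe sets called lower there. With array weights they were 2, 1, 6 and 5 for the same lists, beside 8.72% of all. Median centring called 1 chaperone, beside 291 of all 22548 probe sets called lower there. With 1 array left out they were 0 to 2, 0 to 1, 0 to 5 and 0 to 2. The share of all probe sets called lower then ran from 0.031% without mutant replicate 2 or 3 to 3.86% without mutant replicate 1. Without both arrays numbered 1 the chaperone median was -0.27 and the 3′ end median -0.25. With array weights the 3′ end median was -0.21, and it ran between -0.22 and 0.027 with 1 array left out. The median of the other variants ran between -0.31 and -0.092 with 1 array left out. Precision was limited by 3 arrays per group and by the share of signal between histone copies.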

Other observations

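In the deposited table, 2 probe sets carry the title of a core histone without a numbered his symbol. F20D6.9, titled histone H3 (188694_at), read 4.34, 4.10 and 4.31 in the mutant, against 4.25, 4.15 and 4.29 in wild type, a difference of 0.02 (SE 0.10, adjusted p = 0.931, limma). ZK1251.1, titled histone H2A (188824_at), read 4.0, 4.05 and 3.94 in the mutant, against 4.03, 3.90 and 3.91 in wild type, a difference of 0.05 (SE 0.08). On every array both lay below the brightest yeast control, taken as its mean in each group.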
